A study of Mus musculus with 2 samples.

Results

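The 249 barcodes described here were selected by genes of ocular macrophages and microglia in eye cups of mouse embryos at e13.5. A barcode, the sequence tag of 1 droplet, passed at 200 or more genes and at most 15% mitochondrial UMIs. A UMI is a molecular tag that marks 1 captured RNA molecule. A passing barcode was a member when it held at least 1 UMI of at least 4 of 9 genes, which were C1qa, C1qb, C1qc, Csf1r, Ptprc, Cx3cr1, Aif1, Tyrobp and Fcer1g. Members were thus chosen by measured UMIs of these genes, and the levels of these genes in members are a description that supports nothing further. The rule found 120 of 5519 passing barcodes in the control library and 129 of 6374 in the mutant library, out of 11893 in all.

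Control eye cups had the genotype Myrf fl/fl and mutant eye cups had the genotype Rx>cre Myrf fl/fl, so both carried the floxed Myrf alleles and the mutant carried the Cre as well. Each genotype gave 1 library of 10x 3′ single-cell RNA from 3 pooled samples, with cornea, lens and optic nerve taken off before dissociation in papain. Rx is a homeobox gene of the eye field, so its promoter drives Cre in the neuroepithelial lineages of the eye, whereas macrophages descend from blood precursors. With 1 library per genotype there was no replicate check, no test was possible, and genotype and library cannot be told apart. Intervals below are 95% limits that cover counting error only. Levels are UMIs summed over barcodes and scaled to 1000000 UMIs (CPM). Myrf, the targeted gene and a transcription factor gene of the pigment epithelium, stood at 55.8 CPM in control and 15.1 in mutant pigment cell barcodes, and counted 5 UMIs in control and 0 in mutant members. Which part of Myrf is floxed is not given in the sources used here, so its 3′ counts show the RNA level and not the deletion itself.

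Most macrophages of the embryonic eye descend from early yolk sac precursors. Microglia are the macrophages of the neural tissue, while border macrophages lie in the mesenchyme and along vessels. They depend on Csf1r, the receptor for the growth factors Csf1 and Il34, and on the transcription factor PU.1, encoded by Spi1. C1qa, C1qb and C1qc encode the 3 chains of C1q, which opens the classical complement cascade and marks debris for uptake. Tyrobp and Fcer1g encode membrane adaptors that pass signals from Fc receptors and from Trem2, a lipid-sensing receptor. Cx3cr1 is a fractalkine receptor, Aif1 encodes the microglial marker Iba1, and Ptprc encodes CD45 of all white blood cells.

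The C1q genes lie side by side on the minus strand of chromosome 4 of GRCm38 in the GENCODE annotation, C1qb at 136880129 to 136886187, C1qc at 136889804 to 136893065 and C1qa at 136895917 to 136898803. Promoter windows from RefSeq on GRCm38.p6, reaching from 250 bases before to 50 after the start of a gene, were searched for the letters GAGGAAG, a purine-rich sequence of the kind that PU.1 binds. Both strands were searched, and a match on the opposite strand reads as CTTCCTC. The motif stood in 4477 of 32851 promoter windows (13.6%). By gene it stood in 1339 of 8144 genes with a window among those compared in members (16.4%), and in 158 of 473 with a window among the genes at least 10-fold higher in members than in other barcodes (33.4%). The 4 windows below are shown because C1qb and C1qc are genes of the selection rule, Trem2 is a microglial gene and Mrc1 a border macrophage gene; capitals mark each match, and a match is a description of the letters only. C1qb (chr4:136886151-136886450, minus strand) held 0 matches, C1qc (chr4:136892865-136893164, minus strand) 1, Trem2 (chr17:48346151-48346450, plus strand) 1 and Mrc1 (chr2:14229164-14229463, plus strand) 2. Windows of other genes were looked at too. Those of the rule genes Fcer1g, Aif1, Cx3cr1 and Ptprc held 0 matches, as did those of P2ry12, Ms4a7, Ly86, Crybb1 and Cryba4. Each window of Ctss, Fcgr3, Pf4, Fcrls and Cd53 held 1.
C1qb: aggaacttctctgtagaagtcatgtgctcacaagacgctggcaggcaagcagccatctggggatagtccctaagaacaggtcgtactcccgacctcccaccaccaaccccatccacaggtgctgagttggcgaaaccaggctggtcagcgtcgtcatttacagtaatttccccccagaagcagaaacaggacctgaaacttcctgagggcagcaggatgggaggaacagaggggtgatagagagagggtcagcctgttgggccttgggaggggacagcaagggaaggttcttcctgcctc
C1qc: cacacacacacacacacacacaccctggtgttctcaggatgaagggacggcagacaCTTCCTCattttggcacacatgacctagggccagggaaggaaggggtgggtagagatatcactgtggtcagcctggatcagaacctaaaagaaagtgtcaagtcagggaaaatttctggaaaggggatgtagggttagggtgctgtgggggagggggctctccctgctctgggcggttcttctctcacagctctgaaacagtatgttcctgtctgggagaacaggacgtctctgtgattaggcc
Trem2: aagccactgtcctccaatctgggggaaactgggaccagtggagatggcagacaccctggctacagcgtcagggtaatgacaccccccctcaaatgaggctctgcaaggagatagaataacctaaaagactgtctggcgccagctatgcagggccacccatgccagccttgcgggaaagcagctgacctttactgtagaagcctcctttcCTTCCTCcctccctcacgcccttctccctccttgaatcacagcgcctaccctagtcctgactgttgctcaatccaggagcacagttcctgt
Mrc1: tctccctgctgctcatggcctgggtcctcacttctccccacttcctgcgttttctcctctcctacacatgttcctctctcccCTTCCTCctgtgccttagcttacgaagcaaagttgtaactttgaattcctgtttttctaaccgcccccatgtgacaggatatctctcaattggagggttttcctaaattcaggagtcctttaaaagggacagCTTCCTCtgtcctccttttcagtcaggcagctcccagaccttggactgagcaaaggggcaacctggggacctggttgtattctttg

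C1q RNA, itself part of the rule, was common in members and stood at low levels in the other barcodes. It was not absent there. A C1q UMI was held by 66 of 242 control and 94 of 272 mutant barcodes with 1 rule gene. Of barcodes with 2 rule genes, 14 of 24 and 12 of 21 held one. In the control library C1qa stood at 1613 CPM in members and 0.476 in all other passing barcodes, and in the mutant library at 2172 and 0.562. C1qb stood at 2240 and 3053 CPM in control and mutant members against 0.607 and 0.781 elsewhere, and C1qc at 1695 and 2492 against 0.492 and 0.589. No gene of the rule passed 4 CPM in the other barcodes. Thinned to 3000 UMIs per barcode, 0 of 1316 control and 0 of 1464 mutant retinal progenitor barcodes held a C1qc UMI, which allows shares of up to 0.228% and 0.205%. Without thinning, the retinal progenitor barcodes held 2 control and 8 mutant UMIs of C1qc in all, at median depths of 13768 and 12329 UMIs.

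**Figure D1:**
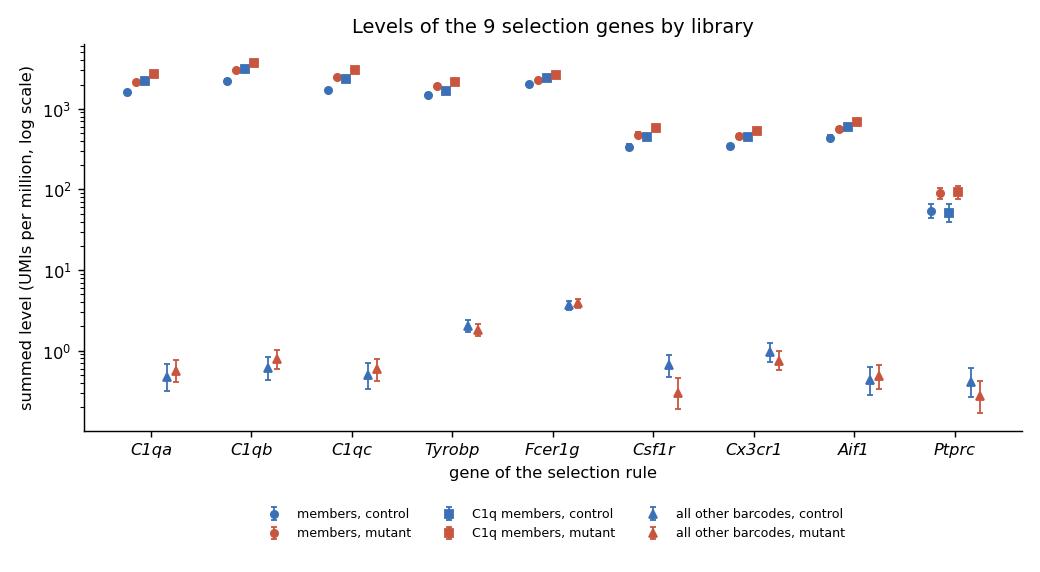
Summed level in CPM (log scale) of each gene of the selection rule in members, in C1q members and in all other passing barcodes of each library, with bars for 95% counting limits. C1qb stood at 2240 and 3053 CPM in control and mutant members and below 1 CPM in the other barcodes.

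The edge of the rule was thin. In the control library 5125 barcodes held UMIs of 0 of the 9 genes, 242 of 1, 24 of 2 and 8 of 3, and in the mutant library these counts were 5935, 272, 21 and 17. Just outside the rule, the barcodes with 3 genes held medians of 4.5 (control) and 5 (mutant) UMIs of the rule genes, and 5 of 8 and 13 of 17 held a C1q UMI. Just inside it, 13 barcodes of each library held exactly 4 genes, with medians of 45 and 8 UMIs of these genes. At the other end, 31 control and 40 mutant members held all 9, with medians of 382 and 404.5 UMIs of the rule genes.

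Members held fewer UMIs than other barcodes. Their median was 7025 UMIs in the control library (529 to 97782) and 6771 in the mutant library (637 to 66519), against 11384 and 11204 in the other passing barcodes. Mitochondrial UMIs made up a median of 3.22% and 3.88% of member UMIs. Of 72 barcode sequences found in both libraries, 1 was a member in a single library and 0 in both. Scrublet marked 0 control and 2 mutant members as doublets, among 51 and 74 barcodes marked in all.

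Members were sorted into classes, with C1q genes that were also part of the rule, so the classes do not test the label. A class of C1q members, set after the values were seen, needed UMIs of at least 2 of the 3 C1q genes and few mast cell and granulocyte genes, and took in 106 of 120 control members (88.3%) and 121 of 129 mutant members (93.8%). A further 6 control and 4 mutant members held at least 5 of 8 mast cell genes. They held 0 (control) and 1 (mutant) C1q UMIs, and had entered the rule mainly through Tyrobp, Fcer1g, Ptprc and Cx3cr1. Cpa3, a mast cell carboxypeptidase, counted 1610 and 642 UMIs in them, and Cma1, a mast cell chymase, 1042 and 25. A granulocyte-marker class of 3 and 2 members held 731 and 48 UMIs of Prtn3 and 356 and 2 of Mpo, both proteases or peroxidases of immature granulocytes. The last 5 and 2 members belonged to no class. The C1q class also held barcodes with very few C1q UMIs. A control barcode of 16603 UMIs held 2 C1q UMIs and 6 UMIs of the rule genes. It gave 129 of the 145 UMIs of the melanosome gene Pmel in control C1q members. Another of 15820 UMIs held 2 C1q UMIs, and a mutant barcode of 14959 UMIs held 3.

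**Figure D2:**
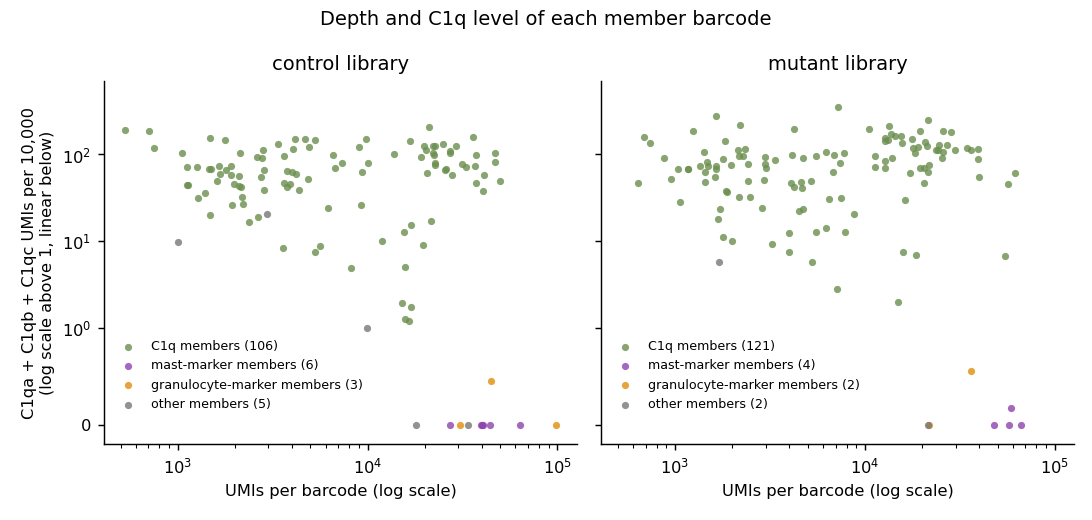
UMIs per barcode (log scale) against C1qa, C1qb and C1qc UMIs per 10000 (log scale above 1, linear below) for every member of each library, coloured by class. Most of the 106 and 121 C1q members form the upper cloud, and the 6 and 4 mast-marker members lie at the bottom right, at median depths of 40211.5 and 58042 UMIs.

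These few barcodes were deep, so they weighed on sums over all members. Mast-marker members made up 14.4% of the member UMIs of the control and 13.8% of those of the mutant library, and granulocyte-marker members 9.75% and 3.47%. Prtn3, at 424 CPM in control and 65.7 in mutant members, had 79.3% of its control UMIs in 1 barcode. S100a8, a neutrophil alarmin, counted 143 UMIs in 1 control member and 0 in the mutant members. Values for C1q members alone are therefore given beside those for all members for several results.

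The share of members was close between the libraries. Control members made up 2.17% (1.81 to 2.59) of passing barcodes and mutant members 2.02% (1.69 to 2.40), a difference of -0.15 percentage points with limits of -0.677 and 0.365. C1q members made up 1.92% and 1.90% of passing barcodes, a difference of -0.02 points with limits of -0.524 and 0.470. These limits bound the difference between the libraries and do not show equal shares in the genotypes. After thinning every barcode to 3000 UMIs and leaving out shallower ones, 62 of 4186 control barcodes (1.48%) and 74 of 5053 mutant barcodes (1.46%) met the rule.

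Members were also compared with the other barcodes over all genes. Of 10345 genes with at least 10 UMIs over all members, 625 (6.04%) stood at least 10-fold above the other barcodes in both libraries. That contrast follows from the selection, so its counts are given as a description. It held for 13 of 13 genes of Fc receptors and Tyrobp partners, 11 of 11 border macrophage genes, 17 of 20 chemokines and cytokines, 14 of 18 genes of Csf1 receptor signalling, a list that includes Csf1r of the rule, 11 of 17 myeloid transcription factors and 7 of 13 microglia genes. Among markers of other blood cells it held for 6 of 11 monocyte, 5 of 8 mast cell, 3 of 5 granulocyte and 3 of 3 lymphoid genes. It held for 0 of 10 pigment cell, 0 of 9 retinal progenitor, 0 of 9 mesenchyme and 0 of 6 erythroid genes. Spi1 itself stood at 401 CPM in control and 423 in mutant members, with UMIs in 97 and 108 of them, and below 1 CPM elsewhere.

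Most of the 20 genes outside all lists with the largest ratio over other barcodes are named here. Adgre1, which encodes the macrophage antigen F4/80, stood at 118 CPM in control and 171 in mutant members and at 0.082 and 0.068 elsewhere. Ms4a6b, a tetraspan membrane protein gene, stood at 285 and 334 CPM with UMIs in 67 and 81 members. Ly86, encoding the partner MD-1 of an LPS-sensing receptor, stood at 415 and 643 CPM, Mpeg1, encoding perforin-2, at 68.1 and 115, and the nucleotide receptor gene P2ry6 at 83.9 and 120. Ccr1, Cd53, Cd48, Lrrc25, Pld4, Nckap1l and Myo1f were also among the 20, as were 1810011H11Rik and the lens crystallin gene Cryba4. Ighm, the heavy chain gene of IgM, was in that list at 140 and 157 CPM with UMIs in 68 and 67 members, while Cd79b, a B cell receptor chain gene of the lymphoid list, stood at 62.0 and 72.3 CPM.

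A pair of lens crystallin genes was found in members as well. Cryba4 stood at 158 CPM in control and 220 in mutant members, with UMIs in 59 and 68 of them, against 0.771 and 0.247 in other barcodes. Crybb1 stood at 108 and 68.1 CPM with UMIs in 47 and 48 members, against 1.30 and 0.192 elsewhere. The genes are neighbours on chromosome 5, Cryba4 at 112246493 to 112252518 on the minus strand and Crybb1 at 112255815 to 112269585 on the plus strand. Other lens genes were rare in members, with 3 control and 0 mutant UMIs each of Cryaa and Crybb3, and the lens alpha crystallin gene Cryab counted 53 and 9. The part of free lens RNA in the crystallin counts was not tested.

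Microglial and border macrophage RNA was found together in most C1q members. To separate the types, 7 microglia genes (P2ry12, P2ry13, Siglech, Gpr34, Slc2a5, Fcrls, Trem2) and 7 border genes (Mrc1, Lyve1, F13a1, Ms4a7, Folr2, Clec10a, Timd4) were kept, each at under 1 CPM in the other barcodes of both libraries. This cut was made after the levels were seen. Thinned to 3000 UMIs, which left 69 control and 79 mutant C1q members and left out 37 and 42 shallower ones, the microglia genes were found in 57 (82.6%) and 69 (87.3%) of them. Border genes were found in 42 (60.9%) and 45 (57.0%), and genes of both sets in 39 (56.5%) and 42 (53.2%). Only microglia genes were found in 18 and 27 barcodes, only border genes in 3 and 3, and neither in 9 and 7. Without thinning, the microglia genes were found in 87.7% and 85.1% and the border genes in 62.3% and 59.5% of all C1q members. In retinal progenitor barcodes thinned alike, 6 of 1316 control and 7 of 1464 mutant barcodes held a microglia gene and 1 and 2 a border gene, and in red blood cell barcodes, of median depths 22175.5 and 22069 UMIs, 0 of 178 and 0 of 385 held either.

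**Figure D3:**
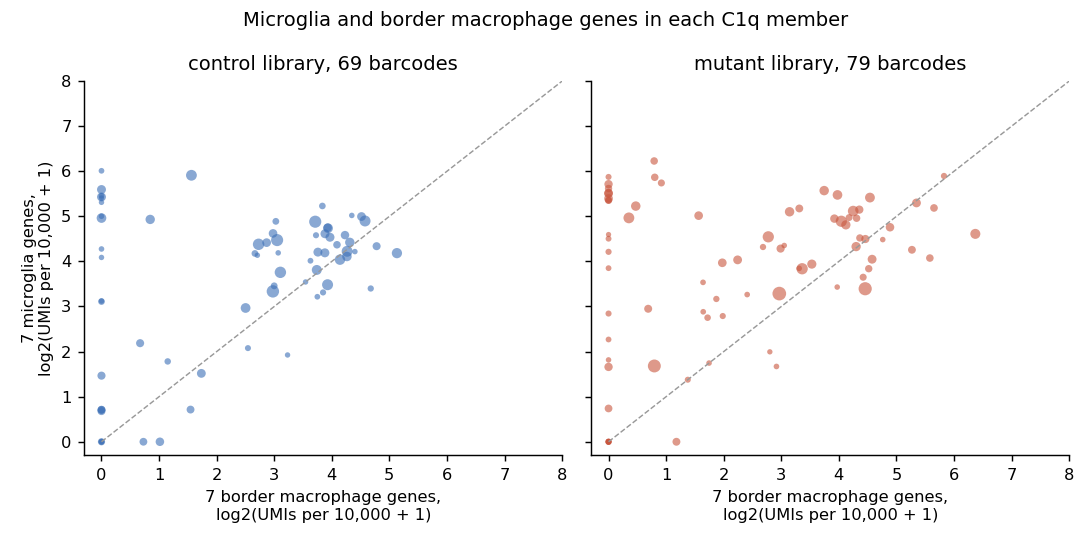
Each point is a C1q member of at least 3000 UMIs, placed by its summed level of 7 border macrophage genes (x) and 7 microglia genes (y), both as log2(UMIs per 10000 + 1), with point area growing with its UMIs and a dashed line where both levels are equal. Most points lie above the line, 49 of 69 in the control and 57 of 79 in the mutant library, and many hold both sets.

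Barcodes with more UMIs of the 7 microglia genes than of the 7 border genes were in the majority in both libraries. They numbered 49 of 69 in the control (71.0%, 58.8 to 81.3) and 57 of 79 in the mutant library (72.2%, 60.9 to 81.7). More border UMIs were held by 16 and 15 barcodes, and 4 and 7 held equal numbers. In 23 control and 16 mutant barcodes the sets lay within 20% of an even split. Depth was alike on both sides, with medians of 17022 and 16135.5 UMIs in the control and 15670 and 14413 in the mutant library. The majority was counted with these genes only, and its dependence on their choice was not tested. Thinned to 3000 UMIs, Fcrls was found in 75.4% of control and 74.7% of mutant C1q members, but P2ry12 in 18.8% and 27.8%. Pf4, a border list gene not kept, stood at 2683 CPM (control) and 814 (mutant) on the microglia side. On the border side it stood at 4425 and 4531 CPM.

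Genes outside the 14 used for the cut differed along this range in both libraries. Tmem119, a surface protein gene of microglia, counted 42 UMIs in 16 of 49 microglia-side barcodes and 1 UMI in 16 border-side barcodes of the control library, and 79 UMIs in 29 of 57 against 3 in 15 of the mutant library. Olfml3, a secreted protein gene known from microglia, counted 102 and 137 UMIs on the microglia side of the libraries and 2 and 3 on the border side. Tgfbr1, a TGF-beta receptor gene, stood at 117 and 119 CPM on the microglia side against 24.5 and 24.1. All 3 pointed the same way in both libraries, but they were named after their values were seen. Tmem119 and Olfml3 also belong to the list from which the microglia genes of the cut were taken. Their shared direction is therefore a description and no separate support for the cut.

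On the border side, Pf4, a chemokine gene of border macrophages and platelets, had a median of 3771 CPM per barcode in the control library against 731 on the microglia side, and of 2375 against 203 in the mutant library. C1qa stood at 2578 CPM on the microglia and 1355 on the border side of the control library, and at 2733 and 2811 in the mutant library. The lysosomal list had the same form, at 15276 against 9301 CPM in the control and 19913 against 19489 in the mutant library. Whether the libraries differ in these contrasts was not tested.

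Between the libraries, the genes of members were compared as mutant over control CPM, with 1 UMI added to each sum. Of the 10345 genes, 45.4% were higher in the mutant library, 339 (3.28%) by at least 2-fold, and 493 (4.77%) were lower by at least 2-fold. In C1q members 9698 genes could be compared, of which 45.3% were higher, 311 (3.21%) by at least 2-fold, and 478 (4.93%) were lower by at least 2-fold. The median gene lay at -0.04 on the log2 scale in members and at -0.06 in C1q members. List counts below are read against these shares, and each list median stands beside that of all genes.

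**Figure D4:**
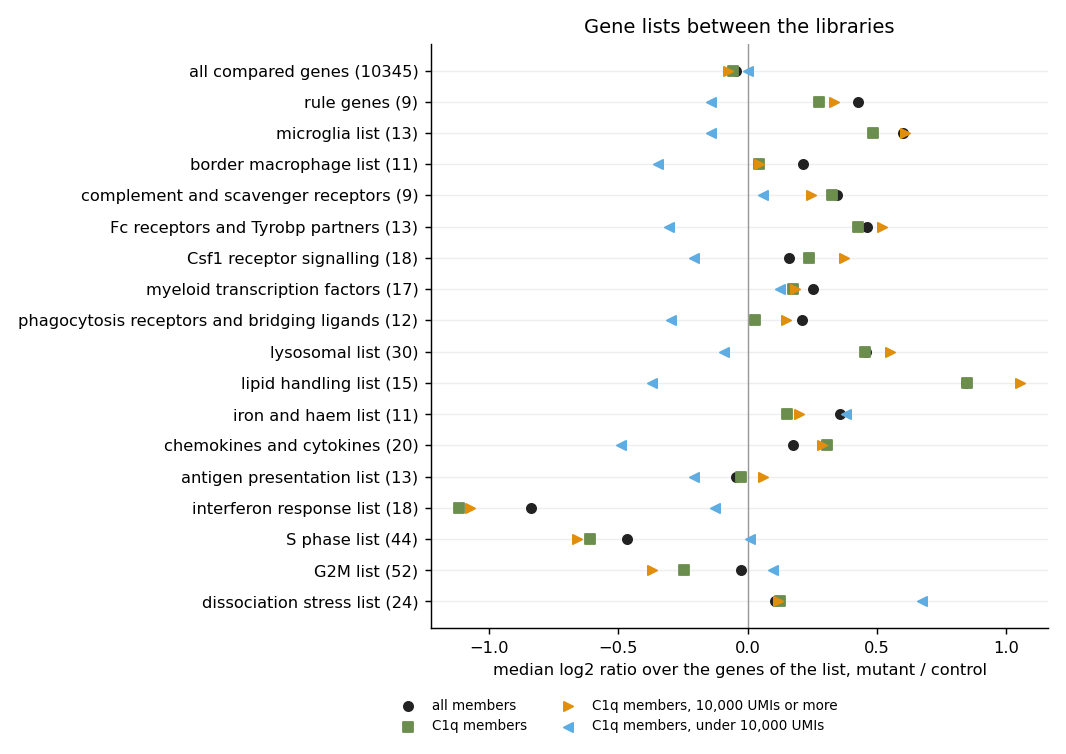
Median log2 ratio (mutant over control) over the compared genes of each list, for all members, C1q members, and C1q members at or above and below 10000 UMIs; the number in brackets is the genes compared in all members. Lipid handling and lysosomal lists lie right of 0 and interferon and S phase lists left of it in all members, and the shallow C1q members lie near or on the other side of 0 for the lysosomal, lipid and S phase lists.

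Summed over all members, the C1q genes and the adaptor genes Tyrobp and Fcer1g had higher levels in the mutant library. All 9 genes of the rule were higher in mutant members, C1qc by 0.56 on the log2 scale (0.49 to 0.62), C1qb by 0.45 (0.39 to 0.51), C1qa by 0.43 (0.36 to 0.50), Tyrobp by 0.36 (0.28 to 0.43) and Fcer1g by 0.19 (0.12 to 0.25). In C1q members alone the C1q ratios were smaller, 0.38 for C1qc, 0.28 for C1qb and 0.26 for C1qa, while that of Tyrobp was 0.36. Csf1r stood at 338 CPM in control and 480 in mutant members, and Aif1 at 440 and 563. Since these genes chose the members, a level here depends on which barcodes passed the rule in each library. In C1q members below 10000 UMIs all 9 were lower in the mutant library, with a median of -0.14.

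Several other lists of macrophage genes were higher in the mutant library more often than all genes, and others were near the share of all genes. Of 9 complement and scavenger receptor genes 9 were higher, with a median of 0.35, and 7 of 9 in C1q members, among them C3ar1, the receptor for the complement fragment C3a, at 113 and 173 CPM, and Itgam, an integrin chain of the complement receptor CR3, at 23.1 and 40.0. Of 13 genes of Fc receptors and Tyrobp partners 10 were higher, with a median of 0.46. Fcgr1, a high-affinity IgG receptor gene, stood at 131 and 174 CPM, and Cd300c2 at 119 and 197. Of 18 genes of Csf1 receptor signalling, Csf1r of the rule among them, 15 were higher, with a median of 0.16, where Ptpn6, a phosphatase gene, stood at 133 and 149 CPM and the kinase gene Lyn at 113 and 127. Of 17 myeloid transcription factors 12 were higher (median 0.25), of 12 phagocytosis receptors and bridging ligands 7 (median 0.21; 6 of 12 in C1q members, median 0.03), of 13 antigen presentation genes 6 (median -0.04) and of 24 dissociation stress genes 15 (median 0.11).

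Microglia genes were higher in the mutant library more often than all genes, and the border list was mixed. Of 13 microglia genes 11 were higher, with a median of 0.60 in members and 0.49 in C1q members. Trem2 stood at 435 CPM in control and 661 in mutant members (0.60, 0.47 to 0.74), Gpr34, a lysophospholipid receptor gene, at 90.7 and 173 (0.93, 0.65 to 1.22) and the purinergic receptor gene P2ry12 at 77.2 and 148. Fcrls stood at 711 and 853 CPM, and the sialic acid receptor gene Siglech at 46.2 and 45.4. Of 11 border macrophage genes 8 were higher, with a median of 0.22 in members and 0.04 in C1q members.

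The border genes went in opposite directions. Pf4 stood at 2141 CPM in control and 1228 in mutant members (-0.80, -0.88 to -0.72), and thinned to 3000 UMIs it was found in 71.0% of control and 53.2% of mutant C1q members, a difference of -17.8 points (-32.2 to -2.15), against 0.228% and 0.137% of retinal progenitor barcodes. Ms4a7, a membrane protein gene of border macrophages, stood at 139 and 350 CPM (1.33, 1.11 to 1.55). Mrc1, the mannose receptor gene, stood at 313 and 330 CPM, Stab1, a scavenger receptor gene, at 385 and 489, and Dab2, an endocytic adaptor gene, at 300.2 and 326.8. The hyaluronan receptor gene Lyve1 counted 95 and 123 UMIs in C1q members, of which 68 mutant UMIs came from 1 barcode, and its ratio without the richest barcode of each library was -0.43.

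Genes of the lysosome were higher in the mutant library for nearly the whole list. Of 30 compared genes 29 were higher, 3 of them by at least 2-fold, with a median of 0.46 in members and 0.45 in C1q members. Ctsd, the gene of the aspartic protease cathepsin D, stood at 683 CPM in control and 1562 in mutant members (1.19, 1.09 to 1.29) with UMIs in 98 and 97 of them. Ctsb, a cysteine cathepsin gene, stood at 1529 and 2569 CPM (0.75, 0.68 to 0.82), Lgmn, encoding legumain, at 992 and 1367, and the membrane protein gene Lamp1 at 734 and 994. In the other barcodes Ctsd stood at 99.1 and 74.7 CPM and Ctsb at 74.4 and 72.7.

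Genes of lipid handling leaned the same way and further. Of 15 compared genes 13 were higher, 4 by at least 2-fold, with medians of 0.84 in members and 0.85 in C1q members. Apoe, the main lipid carrier of glia and macrophages, stood at 6592 CPM in control and 10432 in mutant members (0.66, 0.63 to 0.70). Fabp5, a fatty acid chaperone gene, stood at 265 and 953 CPM, but 1 mutant barcode gave 644 of 1518 C1q member UMIs, and without the richest barcode of each library its ratio in C1q members was 1.35. Plin2, a lipid droplet coat gene, stood at 371 and 535 CPM, Apoc1 at 244 and 410 and Abca1, a cholesterol exporter gene, at 65.9 and 119.

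Lpl, the gene of lipoprotein lipase, differed in level and, after thinning, in the share of barcodes that held it. A share on thinned counts also follows the level, so it is not a separate difference. It stood at 114 CPM in control and 266 in mutant members. Thinned to 3000 UMIs, 14 of 69 control C1q members (20.3%, 11.6 to 31.7) and 34 of 79 mutant ones (43.0%, 31.9 to 54.7) held it, a difference of 22.7 points (7.70 to 36.2), against 41.5% and 47.9% without thinning. Retinal progenitor barcodes thinned alike held it in 2.74% and 3.28%, and red blood cell barcodes in 0 of 178 and 0 of 385. The limits of the difference held 0 for Ctsd, found in 75.4% and 73.4%, and for Apoe, found in 98.6% and 94.9%.

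Several list differences were found among the deep barcodes and not among the shallow ones. C1q members were split at 10000 UMIs after the values were seen, into 42 control and 49 mutant barcodes at or above and 64 and 72 below. At or above the limit 28 of 30 lysosomal genes were higher in the mutant library (median 0.55), and below it 12 of 27 (median -0.09). For lipid handling the counts were 13 of 14 (median 1.06) and 2 of 10 (median -0.37). Of the 13 microglia genes compared above the limit 10 were higher (median 0.61), and 4 of 10 below it (median -0.14). Below the limit 2 of 10 genes of Fc receptors and Tyrobp partners (median -0.30), 3 of 12 of Csf1 receptor signalling (median -0.21) and 0 of 3 phagocytosis genes (median -0.29) were higher, and 7 of 12 myeloid transcription factors (median 0.13). The 9 rule genes were all higher above the limit and all lower below it, with medians of 0.33 and -0.14.

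The levels per barcode moved in the same manner. The lysosomal list summed to 1707 CPM in the lowest, 12542 in the median and 32841 in the highest deep control barcode, and to 1738, 20000 and 50318 in the deep mutant barcodes, so that the ranges overlapped widely while the medians lay apart. Shallow control and mutant C1q members had medians of 9595 and 9215 CPM. For lipid handling the deep medians were 9928 and 15295 CPM and the shallow medians 9483 and 8176. The share of all genes that were higher was 44.7% above and 50.2% below the limit.

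A handful of genes with large ratios rested on few barcodes. Spp1, the gene of osteopontin, counted 48 UMIs in 7 control and 612 in 12 mutant members, of which 388 were in 1 mutant barcode of 36051 UMIs. That barcode also gave 228 of 350 Ccl3 and 233 of 378 Ccl4 UMIs of the mutant C1q members, both genes of inflammatory chemokines, and 36 of 37 Csf1 UMIs. Without the richest barcode of each library, the ratio in C1q members was 3.56 for Spp1, 0.62 for Ccl3, 1.40 for Ccl4 and -0.65 for Csf1. Hmox1, the gene of the haem-degrading enzyme, stood at 301 CPM in control and 839 in mutant members, and 505 of 1401 mutant UMIs of C1q members were in 1 barcode, without which, and without its control counterpart, the ratio was 0.99. Its share of barcodes thinned to 3000 UMIs was 42.0% and 40.5%.

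Other genes of secreted products were spread over more barcodes. Lyz2, the macrophage lysozyme gene, stood at 740 CPM in control and 1620 in mutant members (1.13, 1.04 to 1.23) and in C1q members at 483 and 1634, with UMIs in 84 and 94 members. Igf1, a growth factor gene, stood at 54.6 and 139 CPM (1.33, 1.00 to 1.70) in 42 and 56 members, against 55.0 and 54.2 CPM in the other barcodes. Tgfb1, which microglia need for their identity, stood at 225 and 211 CPM, and Ccl2, a monocyte chemokine gene, at 110 and 73.5. Over their lists, 12 of 20 chemokines and cytokines (median 0.18) and 7 of 15 growth factors (median -0.09) were higher.

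**Figure D5:**
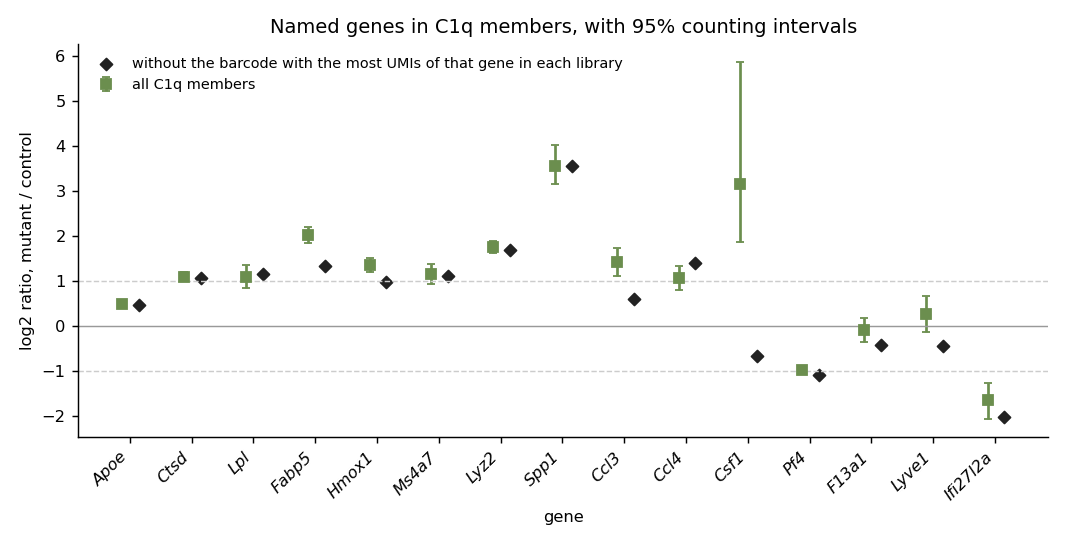
Log2 ratio (mutant over control) of 15 genes in C1q members with 95% counting limits (squares), and without the barcode with the most UMIs of that gene in each library (diamonds); dashed lines mark 2-fold. Csf1 and Lyve1 change side without 1 barcode per library, and Ctsd, Lyz2 and Ifi27l2a keep theirs.

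Summed over members, interferon response genes were lower in the mutant library for all but 1 of the list, but the median C1q member was not lower. Of 18 compared genes 1 was higher and 6 were lower by at least 2-fold, with a median of -0.84 in members and -1.12 in C1q members. Ifi27l2a stood at 144 CPM in control and 47.2 in mutant members (-1.60, -1.99 to -1.24), with UMIs in 27 and 29 of them. Bst2, encoding the virus-tethering protein tetherin, stood at 355 and 301 CPM (-0.24, -0.41 to -0.07), but thinned to 3000 UMIs it was found in 47.8% of control and 55.7% of mutant C1q members, a difference of 7.87 points (-8.08 to 23.3). Among members of at most 20000 UMIs its ratio was 0.50. Psmb9, an immunoproteasome gene of the antigen presentation list, stood at 100.3 and 56.8 CPM. Ifitm1 stood at 371 and 208 CPM in members, but counted no more than 4 and 6 UMIs in C1q members. The interferon median was -1.08 for 16 genes in deep C1q members and -0.13 for 6 genes in shallow ones.

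Genes of cell division were found in members of both libraries, and DNA replication genes were lower in the mutant members. Of 44 S phase genes 4 were higher and 40 lower in the mutant library, with a median of -0.47 in members and -0.61 in C1q members. Rfc2, a clamp loader gene, stood at 189 CPM in control and 135 in mutant members, Slbp, encoding the histone stem-loop binding protein, at 158 and 105 and Nasp, a histone chaperone gene, at 176 and 119. The S phase list summed to a median of 2679 CPM in deep control and 929 in deep mutant C1q members, and of 1593 and 1711 in shallow ones. Of 52 G2M genes 23 were higher (median -0.03), and in C1q members 9 of 51 (median -0.24).

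The shares of barcodes with a division gene differed from gene to gene. Thinned to 3000 UMIs, Top2a, a mitotic topoisomerase gene, was found in 26.1% of control and 12.7% of mutant C1q members, a difference of -13.4 points (-26.2 to -0.70). For Pcna, the sliding clamp gene, the shares were 29.0% and 16.5%, a difference of -12.5 points (-25.9 to 0.949). Mki67, a marker of cycling cells, was found in 15.9% and 17.7%, a difference of 1.78 points (-10.7 to 13.8). The limits of the difference held 0 for Pcna and Mki67 and not for Top2a.

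Named changes outside the lists were of several kinds. The lowest ratios were those of Gm26917, at 478 CPM in control and 65.7 in mutant members with 58.1% of its control UMIs in 1 barcode, 1600014C10Rik at 47.3 and 14.9, and Tpsg1, a mast cell tryptase gene found in 3 and 1 members and in 0 C1q members. Itm2a, Rgs18, Rorb, Chchd10, Car8, Grb10 and Mdk followed, with log2 ratios of -1.52 to -1.10. Rorb, a retinal nuclear receptor gene, stood at 73.2 and 27.5 CPM, and Mdk, the midkine gene, at 277 and 128. Among the largest ratios upward, Nnat, an imprinted gene of neurons, stood at 28.7 and 144 CPM in 23 and 23 members, and Syngr1, a vesicle protein gene, at 52.9 and 170 in 31 and 59. Fcna, which encodes a lectin of the complement system, counted 24 and 76 UMIs. Lgals3, the galectin-3 gene of activated macrophages, stood at 58.0 and 133 CPM, and in C1q members it counted 22 and 179 UMIs (2.88, 2.29 to 3.65). These lay in 13 control and 19 mutant barcodes, with 79 of the mutant UMIs in 1 barcode. Without the richest barcode of each library the Lgals3 ratio was 2.58. Stfa1 had 92.7% and Crabp1 80.8% of their mutant UMIs in 1 barcode, and Mt2, Pop4, AC149090.1 and Gpr137b made up the rest.

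RNA of other cell types in members differed between the libraries too. The haemoglobin genes of the erythroid list were higher in mutant members in 6 of 6 cases, Hbb-y at 187 and 468 CPM, and the list summed to 471 CPM in control and 1398 in mutant C1q members. Retinal progenitor barcodes gave 361 and 958 CPM of the same list and endothelial barcodes 299 and 722, so all 3 kinds of barcode were higher in the mutant library, which held 465 red blood cell barcodes against 212. Pigment cell genes were lower in 10 of 10 cases, summing to 394 CPM in control and 110 in mutant members, and Pmel, a melanosome gene, had 52.4% of its control UMIs in 1 member. These sums leaned on few barcodes. Per member the list had medians of 30.8 and 0 CPM, and highest values of 21851 CPM in control and 4441 in mutant members. Of the pigment genes compared in C1q members, 0 of 6 were higher in the mutant library at or above 10000 UMIs, and 2 of 3 below it. The retinal progenitor list summed to 335 and 115 CPM, and Sfrp2, a Wnt modulator gene of progenitors, was found after thinning in 27.5% and 8.86% of C1q members. Markers of another class were met by 18 of 120 control and 14 of 129 mutant members. Without these members Mdk had a ratio of 0.01, and the part of other cells' RNA in the remaining ratios was not tested.

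Ligands for the receptors of members were found in different kinds of barcode, members included. Csf1 stood at 5.98 CPM in control and 4.70 in mutant retinal progenitor barcodes and at 4.67 and 4.23 in mesenchyme barcodes. In endothelial barcodes it stood at 8.80 (4.69 to 15.1) and 4.80 (2.07 to 9.45), from 13 and 8 UMIs. Members held it at 2.82 and 22.7 CPM, where 36 mutant UMIs came from 1 barcode. Il34, the other ligand of Csf1r, counted 3 UMIs over all other control and 2 over all other mutant barcodes. Cx3cl1, the ligand of Cx3cr1, stood at 6.09 and 3.00 CPM in endothelial and 0.832 and 0.808 in retinal progenitor barcodes. Tgfb1 stood at 268 and 236 CPM in endothelial barcodes, near its level in members, and below 5 CPM in retinal and mesenchyme barcodes.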

How the data were processed

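The authors aligned the 10x reads with Cell Ranger and deposited counts of UMIs per gene and barcode on mm10 for called cells, not normalized; the submitters' processing notes name Cell Ranger 7.1.0 and Seurat 4.1.1. The deposited counts came to 63483835 UMIs in 6039 control and 75228861 in 6754 mutant barcodes. Here, counts were summed over barcodes in Python 3.11.15 with numpy 2.4.6 and expressed as CPM. Log2 ratios had 1 UMI added to each sum and were given for genes with at least 10 UMIs over members. Limits at 95% (exact Poisson, Clopper-Pearson, Newcombe and conditional binomial, scipy 1.17.1) covered counting error only, and a count of 0 was read as up to 3. To compare shares across depths, barcodes were thinned to 3000 UMIs. Doublets (Scrublet, scanpy 1.11.5, 5% expected) were marked and kept. Comparison classes were barcodes with at least 5 marker genes of their list, or at least 20% haemoglobin UMIs for red blood cells. The scripts were tested on simulated data.

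The members and the gene lists were chosen with earlier results of these data known. Named genes were the 9 rule genes, up to 6 genes with the most UMIs in members in each of 33 lists, the 10 largest falls and 10 largest rises outside the lists with at least 100 UMIs in members (sex-linked, ribosomal protein, haemoglobin and mitochondrial genes left out), and the 20 largest ratios over other barcodes with at least 200 UMIs. P2ry12, Siglech, Lyve1, Lpl, Abca1, Csf1, Tmem119, Olfml3, Tgfbr1, Top2a, Pcna, Mki67 and genes of ligands outside the members were named after their values were seen. Alternatives were other thresholds of the rule, depth and mitochondrial limits, other scaling, thinning depths and leaving out barcodes.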

Additional observations from a re-analysis of the deposited data

How the results depend on the processing

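No paired analysis was possible because each genotype had 1 library. Of the list medians under the alternatives, 46 stayed within the spread of the main value, 19 moved and 5 changed sign, and of the values of named genes 395, 215 and 15 did; 15 of the other 74 values moved. With at least 6 of 9 rule genes the shares of members were 1.67% and 1.54%, the G2M median was -0.20, and Cpa3 (4.24), Pmel (1.06) and Stfa1 (-0.45) changed sign. With at least 3 the lysosomal median was 0.36. At a 5% mitochondrial limit the control share was 2.68% and the G2M median 0.17. At no more than 20000 UMIs the control share was 1.75%, the medians were 0.70 (lysosomal), -0.64 (S phase) and -0.30 (G2M), and Ccl3 (-0.15) and Ccl4 (-1.68) changed sign. At no more than 2000 UMIs, which left 24 and 30 members, the mutant share was 2.70% and the difference 0.69 points, 88 genes were at least 2-fold higher and 70 lower of 1130 compared, the medians were -0.26 (lysosomal), -0.60 (lipid handling) and -0.22 (S phase), and Ctsd (-0.23), Lpl (-1.95) and Nnat (-1.10) changed sign; thinning to 3000 UMIs was not run there. Without members of another class the medians were -0.62 (S phase) and -0.23 (G2M) and Mdk was at 0.014. The rule on thinned counts gave shares of 1.48% and 1.46%. With 5 UMIs added, 147 genes were at least 2-fold higher and 219 lower, and with at least 50 UMIs per gene 69 and 68 of 5992. As means over cells of log2(UMIs per 10000 + 1), a smaller scale, the medians were 0.0804 (lysosomal), 0.0544 (lipid handling), -0.0757 (interferon) and -0.0826 (S phase), with Mt2 at -0.0136 and Crabp1 at -0.0785. Alternatives chosen after seeing the data gave, in C1q members, -0.61 (S phase), -0.24 (G2M) and 0.72 for Prtn3, at or above 10000 UMIs -0.66 and -0.37, and below it -0.0918 (lysosomal), -0.37 (lipid handling), -0.13 (interferon), 0.00913 (S phase) and 0.10 (G2M). Without the member richest in the gene, Csf1 was at -0.63, Stfa1 at -0.35 and Crabp1 at -0.54. With the 7 specific microglia genes in place of the whole list, the share of thinned members with a microglia gene was 8.56 points higher in the mutant library. The causes of these moves were not tested. Depth set the limit: a gene of 10 UMIs over all members carries a wide counting interval.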
